A study of Mus musculus with 6 samples.

Results

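The suppressor of cytokine signalling genes (Socs1 to Socs7) and Cish are 8 mouse genes, chosen by symbol, whose Bcl6 binding was read from the authors' list of genes assigned to ChIP-seq peaks. The list held a peak for 6 of the 8, Socs2, Cish, Socs3, Socs5, Socs6 and Socs7, and none for Socs1 and Socs4. They had 7 of the 3878 peaks in the genome, and Socs3 was the member with 2. The genes were chosen with results of these peaks known, so their peak values are a description and carry no test.

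Bcl6 was mapped in cortical progenitors derived from A2 lox.Cre Bcl6 mouse embryonic stem cells, which carry a tetracycline-inducible Bcl6 transgene. All cultures received cyclopamine, a Hedgehog pathway inhibitor, at 400 ng/ml between day 2 and day 10. At day 12 all were given doxycycline at 1 µg/ml for 24 h to induce Bcl6. The 2 groups were 3 libraries from chromatin immunoprecipitated with a Bcl6 antibody and 3 libraries of input DNA, and both came from induced cells. Induced and endogenous Bcl6 therefore cannot be told apart. The ES cells were propagated on fibroblast feeders, and the assay does not measure RNA, so the cell type was not checked against expressed markers. The libraries of each group were pooled before peak calling. Every peak value is thus a single value for pooled data without replicate error. The pooled Bcl6 ChIP kept 11718276 tags and the pooled input kept 5048582, at most 1 per position.

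SOCS proteins and CIS, the product of Cish, are feedback inhibitors of cytokine and growth factor receptors that signal through JAK kinases and STAT transcription factors. Their SH2 domain binds phosphorylated receptors or kinases, and their SOCS box recruits elongins B and C and a cullin 5 ubiquitin ligase. Several of the genes are themselves switched on by STATs, which bind the palindrome TTCNNNGAA, and Bcl6 is known to recognise closely related sequences. In the nervous system Socs2 is known as a regulator of growth hormone signalling in neuronal differentiation, and Socs3 as a brake on gp130 signalling.

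Upstream sequences for 4 of the 8 members, without Socs2, were in the promoter table used here (RefSeq, GRCm38.p6, the same build as mm10). They are shown because 2 of them, Cish and Socs3, lay inside a Bcl6 peak, while Socs1 and Socs4 had no listed peak. Each line gives the 250 bases before the RefSeq start, 5′ to 3′, and capitals mark TTCNNNGAA, which reads the same on both strands.
Cish, chr9:107296409-107296658, plus strand: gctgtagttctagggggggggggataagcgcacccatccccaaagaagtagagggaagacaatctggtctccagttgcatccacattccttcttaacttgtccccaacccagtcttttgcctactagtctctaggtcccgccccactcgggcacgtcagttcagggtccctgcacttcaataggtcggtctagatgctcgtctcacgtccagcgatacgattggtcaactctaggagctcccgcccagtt
Socs3, chr11:117969367-117969616, minus strand: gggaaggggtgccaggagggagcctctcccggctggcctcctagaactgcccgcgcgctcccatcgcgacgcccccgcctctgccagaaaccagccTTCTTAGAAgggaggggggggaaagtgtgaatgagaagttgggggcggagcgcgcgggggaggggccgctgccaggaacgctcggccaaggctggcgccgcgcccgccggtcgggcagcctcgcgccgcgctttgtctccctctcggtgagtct
Socs1, chr16:10785537-10785786, minus strand: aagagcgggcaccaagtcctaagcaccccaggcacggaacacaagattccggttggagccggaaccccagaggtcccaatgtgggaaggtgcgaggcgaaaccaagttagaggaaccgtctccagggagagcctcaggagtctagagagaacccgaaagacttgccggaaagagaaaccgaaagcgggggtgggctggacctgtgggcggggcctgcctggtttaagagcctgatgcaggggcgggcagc
Socs4, chr14:47276670-47276919, plus strand: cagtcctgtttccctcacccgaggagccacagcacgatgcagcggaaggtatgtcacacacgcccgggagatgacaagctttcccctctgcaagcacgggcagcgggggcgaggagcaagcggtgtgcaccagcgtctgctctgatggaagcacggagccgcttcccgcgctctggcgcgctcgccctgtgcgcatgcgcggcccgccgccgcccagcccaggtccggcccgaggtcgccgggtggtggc

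At Cish the palindrome began at the first base of the RefSeq gene and occurred in tandem. The following 30 bases, with the matches in capitals, are shown because the peak's summit fell on their first base.
Cish start site, chr9:107296654-107296683, plus strand: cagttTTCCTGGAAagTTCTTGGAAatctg

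The first match, TTCCTGGAA, was centred 9 bp from the summit and the second, TTCTTGGAA, 20 bp from it, with 11 bp between their first bases. Over the window of 250 bases before and 50 after the start, TTCNNNGAA occurred in 8.3% of 32851 windows in the table, and at least 2 matches occurred in 0.457%. The Bcl6-type form TTCCTNGAA, searched on both strands and contained within TTCNNNGAA, was found in Cish and in 1.59% of all windows. A STAT6-type form, with 4 instead of 3 bases between TTC and GAA, occurred in none of the 4 members and in 6.95% of all windows. Of the 80 windows that held both a summit and TTCNNNGAA, the match lay within 10 bp of the summit in 11, that of Cish among them, and the median gap was 66 bp. Some windows share a summit, so these are counts of windows and not of separate peaks. At Socs3 the single match TTCTTAGAA began 154 bases before the start and was centred 252 bp from the summit, so it lay inside the peak but away from its highest point. The Socs1 and Socs4 windows held no match.

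Socs2 and Cish stood at the top of the family. The Socs2 peak, on chromosome 10 from 95415042 to 95418644 (mm10), held 984 tags and was enriched 171-fold over the local background computed by the authors' peak caller. The Cish peak, on chromosome 9 from 107295998 to 107297547, held 235 tags at 63.3-fold. The other 5 peaks lay between 14.3- and 23.6-fold, against a median of 21.3-fold and a 75th percentile of 27.2-fold over all 3878 peaks. Enrichment thus divided the 7 peaks of the family into a pair well above the 75th percentile of all peaks and a remainder on both sides of the median.

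The interval that counting alone gives (exact 95% Poisson, which covers counting error only) was 923.5 to 1047.5 tags for Socs2 and 205.9 to 267.0 tags for Cish, so the pair did not overlap. The Socs2 peak had 4.19 times the tags and 2.7 times the fold enrichment of the Cish peak. It took 66.8% of the 1474 tags in member peaks. By tags per kb of width, Socs2 ranked 1 of 3878 with 273.1 and Cish ranked 8 with 151.6, against a median of 39.97 tags per kb. Their positions by fold were 7 and 69 among all peaks, and 2 and 17 among the 2171 peaks centred within 1 kb of a transcription start site (TSS).

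**Figure D1:**
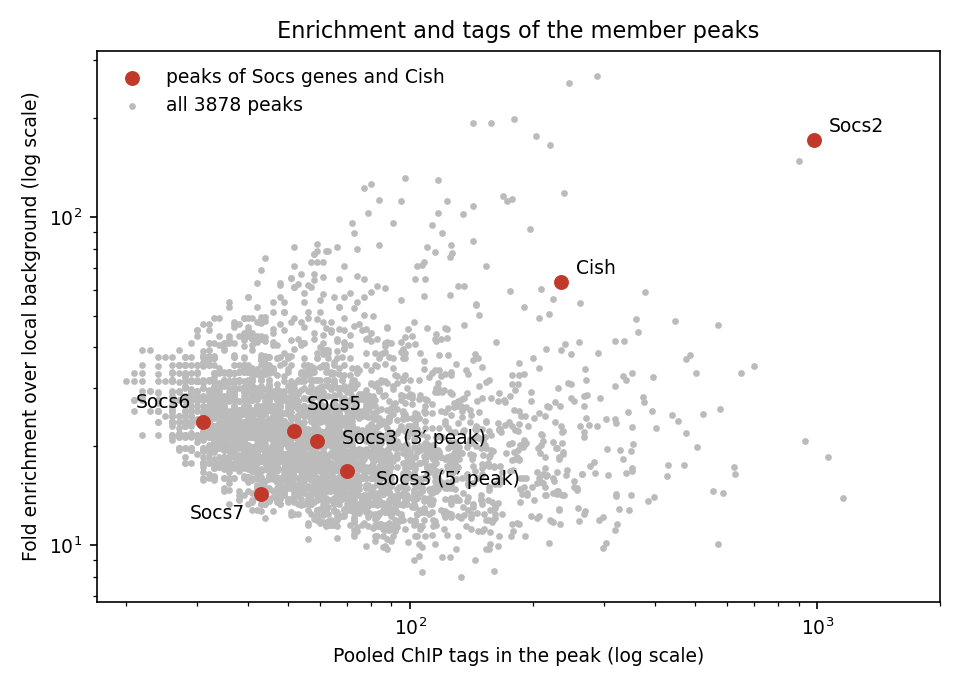
Fold enrichment over the local background (vertical, log scale) against pooled ChIP tags (horizontal, log scale) for the 7 peaks of the Socs genes and Cish (red) and all 3878 peaks (grey). Socs2, with 984 tags and 171-fold, and Cish, with 235 tags and 63.3-fold, stand apart from the other 5 member peaks, which lie within the main cloud between 31 and 70 tags.

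Socs2, which encodes an inhibitor of growth hormone receptor signalling, had a broad peak of 3603 bp, wider than 95.1% of all peaks. Its summit lay 62 bp upstream of the TSS in the authors' list and 402 bp inside the 5′ end of the RefSeq gene span. Its score, minus 10 times the log10 of the caller's p-value, was 2711.69, which was 2.29 times that of the next peak (1184.43). No promoter peak was close to it in fold, tags and width combined. Of the 3 nearest, the peak at Gpx4 was 4.51 SD units away with 46.8-fold, 570 tags and 8116 bp, and that at Hist1h4a was 4.6 units away with 56.2-fold, 224 tags and 2547 bp.

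Cish encodes CIS, an inhibitor of STAT5-activating receptors. Its peak of 1550 bp was centred 746 bp downstream of the listed TSS, but the list placed that TSS 633 bp upstream of the RefSeq start, and the summit fell 5 bp upstream of the RefSeq start itself. The whole RefSeq promoter window of Cish lay inside the peak. In contrast to Socs2, it had near neighbours in fold, tags and width. These were the promoter peaks at Dapk3 and 4930442H23Rik, which share a single peak (59.4-fold, 176 tags, 0.64 units), at Dnajb14 (60.1-fold, 210 tags, 0.72 units) and at Rpl22 (71.0-fold, 154 tags, 1.07 units).

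**Figure D2:**
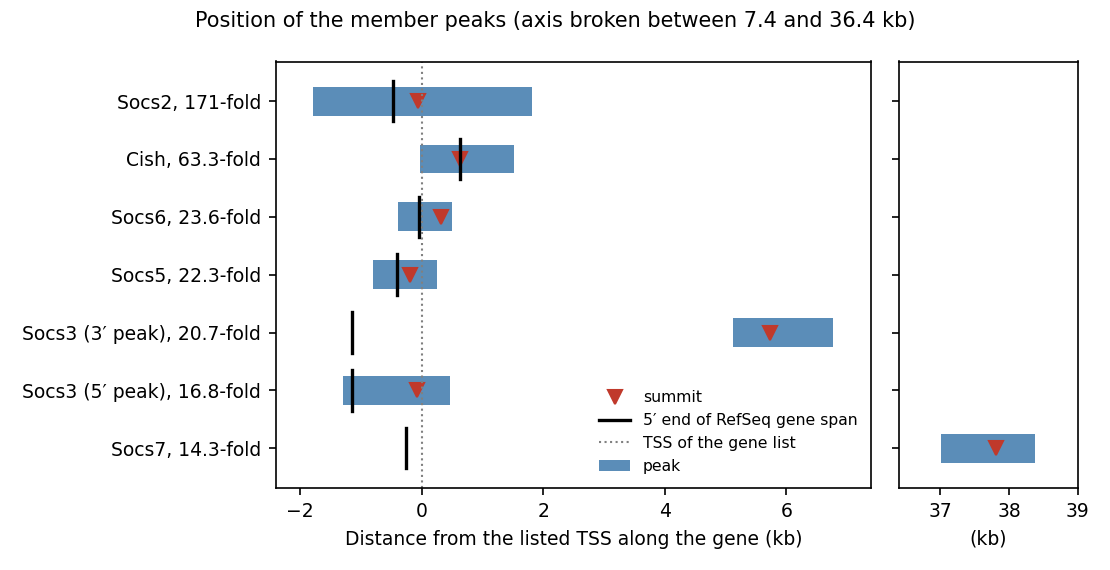
Extent of each of the 7 member peaks (blue bars) along its gene, in kb from the TSS of the authors' list (dotted line), with the summit (red triangle) and the 5′ end of the RefSeq gene span (black tick), ordered by fold from Socs2 at the top to Socs7 at the bottom. The axis is broken between the panels. The summit of Cish coincides with the RefSeq end and not with the listed TSS, and the peak of Socs7 and the second peak of Socs3 lie past the 3′ ends of their genes.

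Socs6 and Socs5, from the group of longer SOCS proteins linked to growth factor receptor tyrosine kinases, had narrow peaks over their start sites. The Socs6 peak on chromosome 18, from 88893828 to 88894708, was 881 bp wide, with 31 tags (interval 21.1 to 44.0) and 23.6-fold. Its fold exceeded that of 62.6% of all peaks, whereas its tag count exceeded that of 6.1%. The Socs5 peak on chromosome 17, from 87106879 to 87107939, was 1061 bp wide, with 52 tags (38.8 to 68.2) and 22.3-fold. It was centred 270 bp upstream of the listed TSS, and that of Socs6 54 bp downstream. The listed TSS of Socs5 lay 401 bp inside the 5′ end of the RefSeq gene span, however, and the Socs5 summit 219 bp inside that end. Both peaks spanned the listed TSS, and both folds lay slightly above the genome's median of 21.3-fold.

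Socs3, the inhibitor of gp130 and leptin receptor signalling, was the member with peaks on both sides of the gene. The 5′ peak on chromosome 11, from 117968711 to 117970475, covered the TSS with 70 tags (54.6 to 88.4) and 16.8-fold. Its summit lay 78 bp upstream of the listed TSS and 102 bp downstream of the start used for the sequence above. The second peak, from 117962416 to 117964057, began 2022 bp past the 3′ end of the gene and had 59 tags (44.9 to 76.1) and 20.7-fold. It was also listed for Tha1, whose TSS was 89.8 kb away. The intervals of tags in the 2 Socs3 peaks overlapped. The higher fold belonged to the peak outside the gene, which exceeded 48.0% of all peaks, against 24.3% for the peak at the TSS.

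Socs7 had the lowest fold and score of the family, though not the fewest tags, which Socs6 had. Its peak was of 14.3-fold with 43 tags (31.1 to 57.9), on chromosome 11 from 97399561 to 97400925. It began 1019 bp past the 3′ end of Socs7, 37.7 kb from its TSS, and was listed for Arhgap23 as well, at 49.9 kb. The score of 51.66 was higher than that of 5.5% of all peaks and close to the lowest in the table, 50.03.

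Socs1, a direct inhibitor of JAK kinases and of interferon signalling, and Socs4 had no peak in the list. The nearest peak in the whole table was 280.3 kb from Socs1 (15.7-fold, listed for Snn) and 28.2 kb from Socs4 (21.7-fold, listed for Lgals3 and Mapk1ip1l). Over 21887 protein-coding genes the median gap to the nearest peak was 131.6 kb, and 45.3% had one within 100 kb. Weak binding at Socs1 and Socs4 was not detectable under this p-value cutoff, which differs from showing that Bcl6 was absent there.

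Set beside all genes, 6 of 8 members had a peak, against 20.1% of the 21887 protein-coding genes. A peak within 1 kb of the TSS was listed for 5 of 8 (Socs2, Cish, Socs3, Socs5 and Socs6), against 10.8% of genes. A strongest peak at or above the 75th percentile of fold was held by 2 of 8, against 6.23%, and a peak of at least 50-fold by the same 2 genes, Socs2 and Cish, against 0.886%. The median over the 6 members of the strongest fold was 23.0, close to 22.3 over all protein-coding genes with a peak. Of the 4393 protein-coding genes with a peak, 1363 had a strongest peak at or above the 75th percentile of fold. Among the 6 members with a peak these were the 2 genes Socs2 and Cish. Since the genes were picked with these values known, nothing further is read from the shares.

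The empirical false discovery rate (FDR) of the authors' table ordered the member peaks differently. Socs2, first of all peaks by score, carried an FDR of 100%, the highest value in the table, and Cish, with score rank 43, carried 4.65%. Socs6 had 0.66%, Socs5 0.58%, the Socs3 peaks 0.58% (3′) and 0.69% (5′), and Socs7 2.67%. The FDR multiplied by the score rank and divided by 100 gave 1.0 for Socs2 and 2.0 for Cish. The peak caller is known to compute this FDR by counting peaks called with ChIP and input exchanged, so these products would correspond to 1 and 2 exchanged peaks with at least that score. An FDR limit of 5% would remove 38 peaks, all with scores of at least 490.42, Socs2 among them, and leave Cish.

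**Figure D3:**
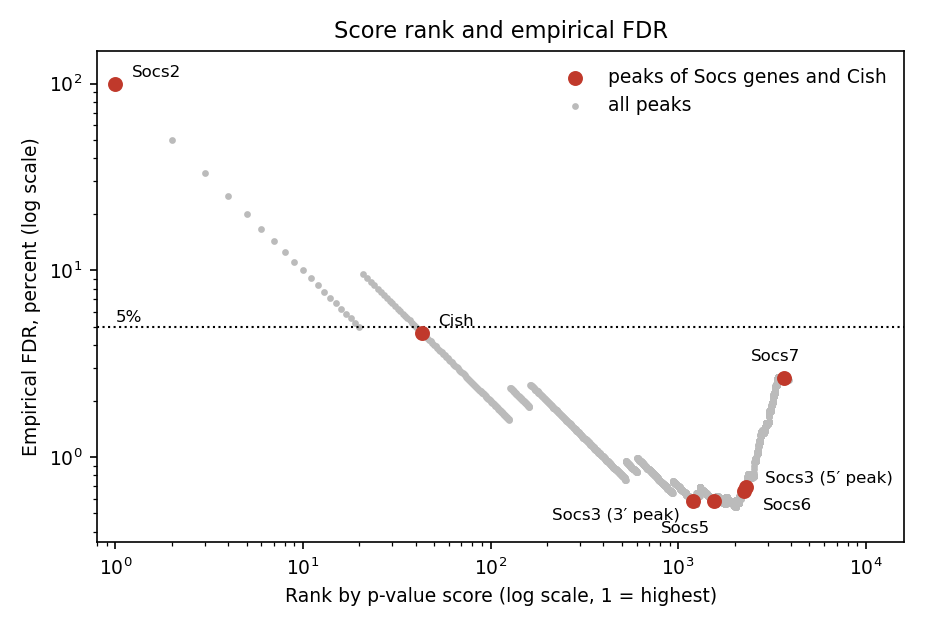
Empirical FDR in percent (vertical, log scale) against rank by p-value score (horizontal, log scale) for the 7 member peaks (red) and all peaks (grey), with a dotted line at 5%. Socs2 is at rank 1 with 100%, Cish at rank 43 with 4.65%, and the other 5 member peaks lie between 0.58% and 2.67%.

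Other genes of the pathway, in lists written with earlier results of these data known, had a peak in 25 of 84 cases. A peak was listed for 4 of 24 cytokine receptors (16.7%) and 1 of 11 kinases and STATs (9.1%), against 20.1% of all protein-coding genes, and nothing is read from such small counts. Ifnar1, a chain of the type I interferon receptor, shared a peak of 31.5-fold 20.4 kb upstream of its TSS with Il10rb and had 1 of 18.6-fold at 152 bp. The interleukin 6 receptor gene Il6ra had a peak of 27.6-fold over its start site. It held 24 tags, and its score of 50.42 was close to the lowest of all peaks, 50.03. Il10ra was listed for 15.7-fold at 31.1 kb, in a peak also listed for a second gene. The kinase gene Jak1 was listed for a peak of 19.0-fold 91.1 kb upstream, also listed for a second gene, and no STAT gene was listed.

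Other inhibitors of the pathway had a peak in 7 of 13 cases, against 20.1% of all protein-coding genes. For 5 of the 13 a peak lay within 1 kb of the TSS, against 10.8%. Pias2 was counted only through a peak 98.0 kb away that was also listed for St8sia5. These counts are small too, and nothing is read from them. Their strongest folds had a median of 21.3, against 22.3 over all protein-coding genes with a peak. Ptpn1, a phosphatase that acts on JAK2 and TYK2, had the strongest, of 51.2-fold at 26.8 kb, listed for Cebpb as well. Sh2b3, which encodes the adaptor LNK, reached 41.2-fold at 212 bp. Pias4, a SUMO ligase gene, reached 22.5-fold at 29.9 kb, in a peak also listed for a second gene, and had 18.2-fold at 72 bp. Ptpn2, a further JAK phosphatase, had 21.3-fold at 86 bp. No gene of this list had a fold as high as Cish.

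Of the 9 genes listed as elongin and cullin partners of the SOCS box, 5 had a peak, all 5 within 1 kb of the TSS. Over all protein-coding genes, 20.1% had a peak at any distance and 10.8% within 1 kb. Nothing is read from such small counts, here or for the other SOCS box genes below. Eloc, which encodes elongin C, had 36.6-fold and 143 tags 318 bp upstream. Elob, for elongin B, had 18.8-fold, the cullin gene Cul5 18.2-fold and Rbx1 17.6-fold. Their median of 18.2-fold was below that of all protein-coding genes with a peak. Among other genes with a SOCS box, 8 of 27 had a peak (29.6%, against the same 20.1%), with a median of 27.1-fold. Asb13 led with 198-fold, from a peak 78.8 kb away that was also listed for Calml3, and it was the only gene of these lists above Socs2. Spsb3 (38.4-fold at 137 bp), Asb6 (33.5-fold at 6057 bp) and Neurl2 (28.7-fold at 238 bp) came next, each sharing its peak with a second gene.

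**Figure D4:**
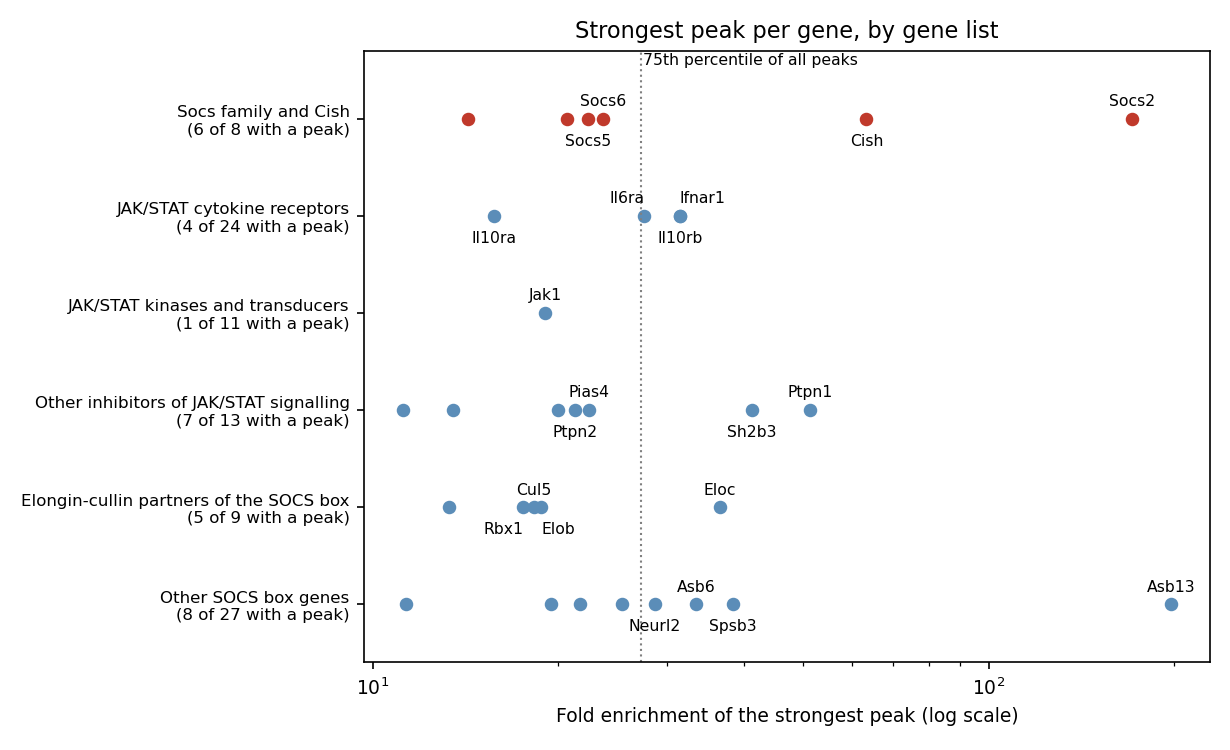
Fold enrichment of the strongest peak per gene (horizontal, log scale) for the 6 members with a peak (red, top row) and for genes of 5 other lists (blue), with the 4 strongest genes of each list named and a dotted line at the 75th percentile of all peaks (27.2-fold). Socs2 at 171-fold and Asb13 at 198-fold are far to the right, and Jak1 is the single gene in the row of kinases and transducers.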

How the data were processed

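Sequencing used the Genome Analyzer IIx, as the labels' protocols state. Bowtie (version not stated) and mm10 are named in the submitters' processing notes. Peaks were called with MACS 1.4.2 on pooled Bcl6 ChIP against pooled input, per the file headers, at a p-value cutoff of 1e-05, with fragments modelled as 188 bp long and a single tag kept at each position. This kept 20.6% of ChIP tags and 39.4% of input tags. Keeping a single tag per position limits the tag count that strong narrow peaks can reach. Tags per peak are deposited as raw counts. The fold enrichment is a ratio computed by the authors' peak caller over a background read at 1000 and 10000 bp. The score is deposited as minus 10 times the log10 of the p-value. Its column name had been overwritten, and it was identified from the column order and its minimum of 50.03. Empirical FDR values were deposited in percent. Genes were assigned with GREAT 3.0.0, per the file headers, with up to 1000000 bp of extension.

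The members, lists and thresholds were chosen with earlier results of these data known. Peak numbers of the gene list follow the rows of the peak table. Symbols were matched to RefSeq (GRCm38.p6, the same build as mm10) for 98.5% of 5801 pairs. Strand was taken as that which places the listed TSS nearer to an end of the RefSeq gene, and positions hold to within 1 bp. Likeness between promoter peaks was the Euclidean distance in log10 fold, tags and width, each in SD units. All 8 members were named, with the 4 strongest genes of each other list, genes sharing a member's peak and the 3 promoter peaks most like those of Socs2 and Cish, of which 1 is not reported here. Genes listed for peaks near Socs1, Socs2, Socs4 and Socs7 were named after their values were seen. No test was made, because no value had a replicate. The motif search recovered sequences planted in simulated promoters. Python 3.11.15, pandas 2.3.3 and scipy 1.17.1 were used.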

Additional observations from a re-analysis of the deposited data

How the results depend on the processing

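No paired analysis was possible because the libraries of each group were pooled before peaks were called, and for the same reason no replicate could be left out. Of 30 alternatives, 18 left a count within 1.5 times of its value or the median fold unchanged to 3 digits. Without peaks of an FDR over 5%, or without peaks over 2000 bp wide, Socs2 was lost in either case. That left 1 member at or above the 75th percentile of fold (against 2) and a median fold over member peaks of 21.515 (against 22.34). With peaks of a score at or above the median, 3 members (against 5) had a peak within 1 kb, the median fold was 42.82, and 14 of the other pathway genes (against 25) had a peak. With pairs within 5000 bp of the TSS, these were 23.64-fold and 16 genes. Promoter windows were at hand for 4 members, without Socs2. Of these, the match was found in 2 as TTCNNNGAA, in 1 as TTCCTNGAA and in 0 as the STAT6-type form. Within the 250 bases before the start, TTCNNNGAA was found in 1, an alternative chosen after seeing the data, as were 2 on the summit's distance. By the summit's distance to either end of the RefSeq gene, 4 members in place of 5 lay within 1 kb. Pooled values give no error between cultures, and the p-value cutoff limits what can be said of Socs1 and Socs4.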

Other observations

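The surroundings of the members differed. Besides its own peak, Socs2 had 3 within 100 kb of the gene, and their folds were lower. They were listed for Cradd (22.6-fold, also for Plxnc1), Mrpl42 (37.8-fold at 74 bp from its TSS) and Ube2n (14.8-fold). Socs7 had 2 besides its own, of 14.2- and 13.3-fold, both listed for Npepps, and the second also for Mrpl45, whose TSS was nearer (5.2 kb, against 29.9 kb for Npepps). Cish, Socs5 and Socs6 had none besides their own.

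The 4 promoter windows also differed in base composition. The Cish window had a GC content of 53.3% and 11 CpG dinucleotides, against 73.3% and 31 for Socs3, 63.3% and 18 for Socs1, and 70.7% and 34 for Socs4. The medians over all windows were 52.7% and 7, and windows that held a peak summit had a median of 66.7%.

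Among windows that held a summit of at least 50-fold, TTCNNNGAA was present in 8 of 25 (32.0%), that of Cish included, compared with 6.77% of the 1182 windows that held any summit and 8.3% of all windows. Windows of neighbouring or alternative starts can share a summit, and these 8 held 6 different peak summits. The Bcl6-type form TTCCTNGAA, contained within TTCNNNGAA, was present in 7 of the 25 (28.0%). Its shares were 2.12% of windows that held any summit and 1.59% of all. The STAT6-type form with 4 bases between TTC and GAA was present in 6 of the 25 (24.0%), against 4.4% and 6.95%. A higher share of windows was thus not limited to TTCNNNGAA, and the differences between forms were not tested. Separate summits were counted only for the windows with TTCNNNGAA and not for all 25. The shares are therefore of windows and not of separate peaks. The window of Cish was the only 1 of the 25 with at least 2 matches of TTCNNNGAA.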
